A study of Homo sapiens with 6 samples.

Results

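The genes of the microtubule system were compared between cells exposed to SW-113 and cells exposed to SW-138. They were 51 genes chosen by name from the 60675 rows of the count table: tubulins, the cofactors that fold them, the enzymes that modify them, and proteins that bind, sequester or sever microtubules. All 51 names were found, with 1 row each, and 50 of them had enough counts to be tested, beside 16905 tested genes in all. The cells were HT1080, an established human fibrosarcoma line with the genotype given as WT in every sample. Each of the 2 groups had 3 libraries, and both compounds, inhibitors of KDAC6 (HDAC6) known here by code names alone, were given at 1 µM for 48 h to cells that covered about 50% of the dish. No vehicle group was among the samples used here, so each gene is called "higher" or "lower" by its level with SW-138 against that with SW-113, and an effect of either compound against untreated cells cannot be told apart. Nothing in the labels says that replicates were grown separately, so the spread behind each test may be technical. In such bulk RNA, fewer cells that express a gene and less RNA per cell cannot be told apart.

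Microtubules are hollow polymers built from dimers of alpha-tubulin and beta-tubulin, each encoded by several genes whose products are called isotypes. Gamma-tubulin complexes start new polymers, cofactors TBCA to TBCE fold and assemble the dimers, and enzymes add or remove acetyl, tyrosine and glutamate groups on tubulin that is already made. HDAC6 removes the acetyl group that ATAT1 places on alpha-tubulin, which is why the tubulin genes are of interest beside inhibitors of this enzyme. All values below are RNA levels and give no measure of tubulin protein, its acetylation or the polymer.

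Tubulin synthesis is controlled through the first residues of the chain: as a new alpha- or beta-tubulin leaves the ribosome its start is recognised, with the help of TTC5, and the mRNA is degraded when free dimers are abundant. The coding starts of several members are shown because those of alpha- and beta-tubulins begin with codons for the same residues, methionine, arginine and glutamate. The last codon in capitals differed, for cysteine in alpha-tubulins and for isoleucine in beta-tubulins. TUBG1 and TUBE1, more distant tubulins, began otherwise after the first codon. The starts were read 5′ to 3′ from the GENCODE release 29 transcripts, and capitals mark the first 4 codons.
TUBA1A: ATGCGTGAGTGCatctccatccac
TUBA4A: ATGCGTGAATGCatctcagtccac
TUBB: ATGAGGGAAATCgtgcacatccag
TUBB2A: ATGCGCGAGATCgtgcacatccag
TUBG1: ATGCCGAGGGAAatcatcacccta
TUBE1: ATGACCCAGTCGgtggtcgtacag
TUBA1B and TUBA1C had the same 24 bases as TUBA1A.

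These genes resemble each other closely, which limits how reads can be assigned. The coding sequences of TUBA1A and TUBA1B were 97.2% identical, and those of TUBB2A and TUBB2B 98.13%. Over windows of 150 bases, the share found in no other annotated gene on either strand was 35.79% for the TUBA1B transcript, 87.43% for TUBA1A, 50.62% for TUBB2A and 11.3% for TUBB3. Most of the TUBB3 overlap was with a read-through gene on the same strand, AC092143.1, whose own row held 0 to 0.516 CPM (counts per 1000000, on library totals scaled with TMM factors). For TUBA1B, the gene sharing the most windows was AC011603.2 on the opposite strand. It has 1309 exonic bases in common with TUBA1B and held 0 to 0.319 CPM. The window shares therefore do not measure likeness between tubulins alone. The deposited counts are estimates that divide shared reads, so single values of TUBA1A, TUBA1B, TUBA1C, TUBB2A, TUBB2B and TUBB3 are uncertain. Sums over TUBA1A, TUBA1B and TUBA1C and over TUBB2A and TUBB2B are given beside them.

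Library totals ran from 32771665 to 50871576 estimated counts, and TMM factors from 0.976 to 1.03. SW-138 replicate 2 stood apart from the others on the first principal component, at 39.08. The signal recognition particle RNAs RN7SL1 and RN7SL2 took 3.72% to 4.39% of the counts with SW-113 and 2.14% to 2.88% with SW-138, without overlap, and their part in the results below was not tested. The mesenchymal marker VIM lay between 3327 and 3858 CPM, and THY1 of the same list was under 1 CPM in every library. Of 6 epithelial markers, 5 were under 1 CPM in every library, with KRT5 and KRT14 at 0, and CLDN4 lay at 1.82 to 3.07 CPM. Of 4 leukocyte markers, 3 were under 1 CPM in every library and CD68 lay at 74.2 to 95.1 CPM. Of 12 proliferation markers, 0 passed the adjusted threshold by edgeR or limma-voom and 1 by DESeq2 (TOP2A, named after its value was seen), 2 were higher at an unadjusted p under 0.05, and their log2 fold changes ran from -0.14 to 0.23.

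Of the 50 tested members, 3 were higher in SW-138 (TUBE1, MAP4 and STMN3) and 3 were lower (TUBA1A, TUBB2A and TBCA), by edgeR's quasi-likelihood test with p-values adjusted over all 16905 genes and a threshold of 0.05. That was 12% of the members, where 6.82% of all tested genes passed (2.76% higher and 4.06% lower). The members were chosen with earlier results of these data known, so the shares here are descriptions and their difference was not tested. The libraries of the groups did not overlap for 20 members, 6 higher and 14 lower, against 27.9% of all tested genes (12.4% higher and 15.4% lower). An unadjusted p under 0.05 was reached by 18 members, 5 higher and 13 lower, against 22.3% of all tested genes. The median log2 fold change was -0.08 over the members and 0.01 over all tested genes. STMN2, which encodes a stathmin of neurons, was the member left untested: it had 0 counts in all 6 libraries, and 3 counts, the limit that a count of 0 allows, correspond to 0.0604 to 0.0887 CPM in a library.

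**Figure D1:**
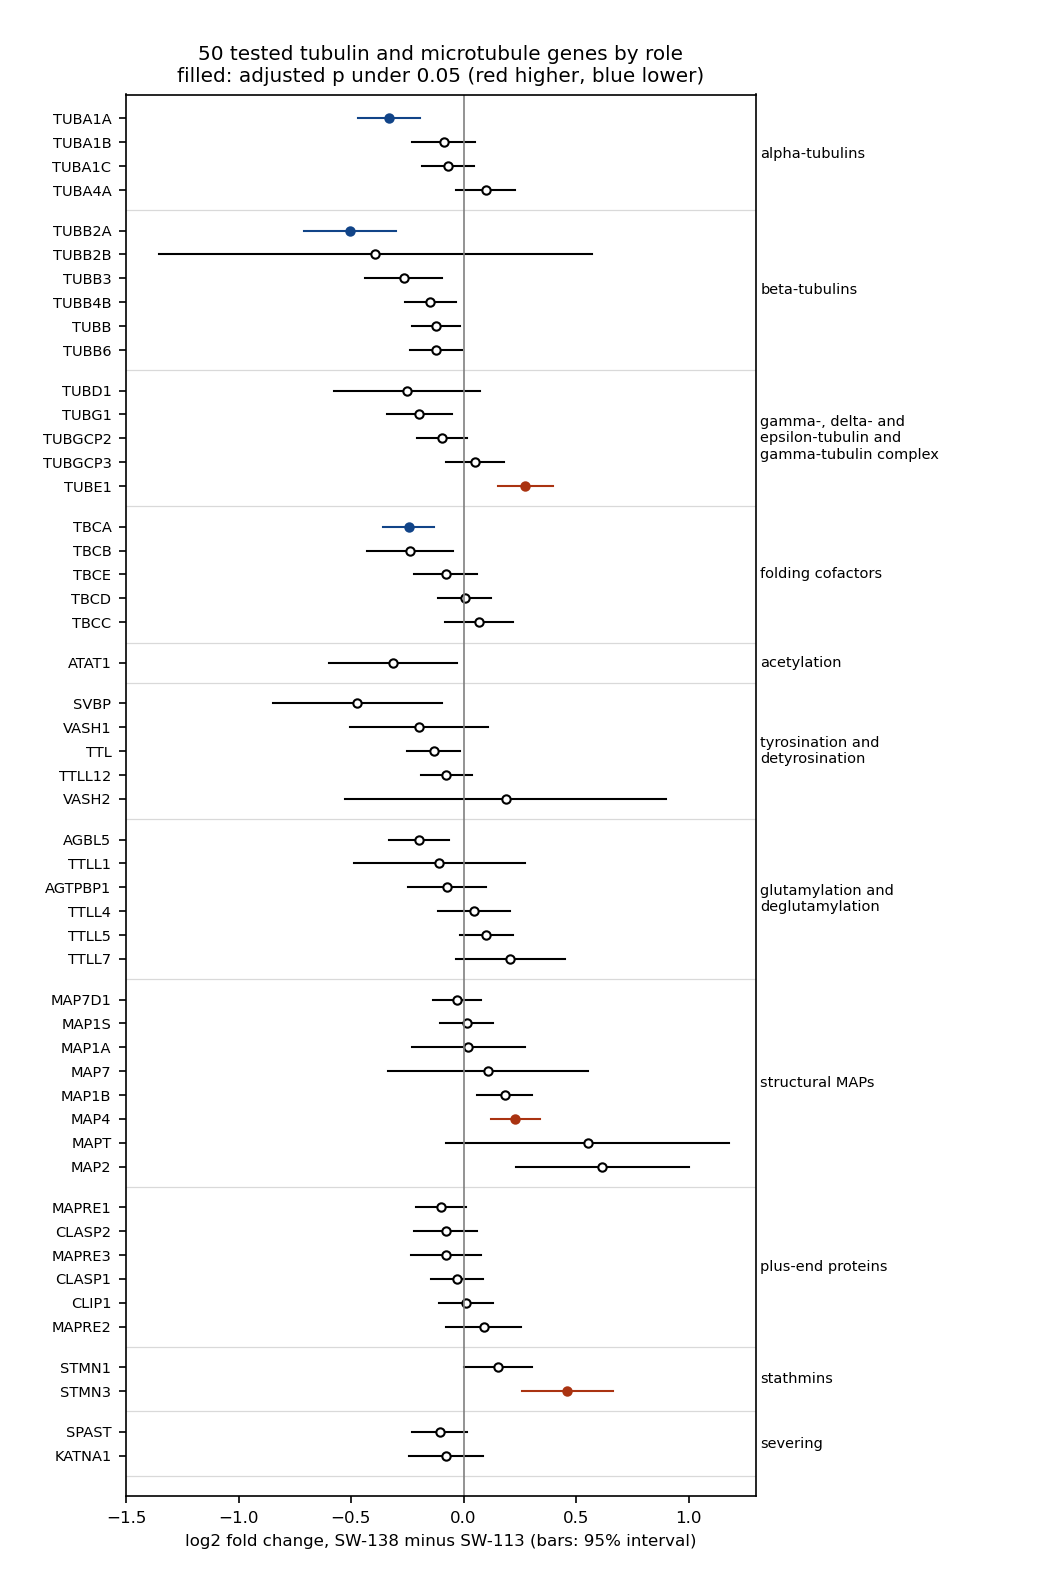
Log2 fold change (SW-138 minus SW-113, horizontal axis) of the 50 tested members, grouped by role, with 95% intervals. Filled symbols are the 6 members past the adjusted threshold, 3 lower and 3 higher. Left of 0 lie 9 of the 10 alpha- and beta-tubulin members, and right of it 7 of the 8 structural MAPs (8 on library totals alone). Of all tested genes, 48.5% had negative values.

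Among the alpha-tubulin members, TUBA1A was lower with SW-138 and the others did not pass the test. TUBA1A (ENSG00000167552, chr12:49184796-49189324, minus strand, GRCh38), the isotype best known from developing neurons, measured 32.3, 31.9 and 34.8 CPM in SW-113 replicates 1 to 3 and 26.1, 25.2 and 27.2 CPM in SW-138 replicates 1 to 3. All 3 SW-138 libraries lay below all 3 SW-113 libraries. The means were 33.0 ± 1.55 and 26.2 ± 1.03 CPM (SD, n = 3), a log2 fold change of -0.33 (SE 0.06, 95% interval -0.47 to -0.20, edgeR adjusted p = 0.0116). Without SW-113 replicate 3, which had the highest level, the log2 fold change was -0.29 and edgeR's adjusted p was 0.0684. Its exons share 490 bases with TUBA1C on the opposite strand, and the strand setting of the counting is not given in the sources used here. The sum of TUBA1A, TUBA1B and TUBA1C was 1457, 1400 and 1615 CPM with SW-113 and 1381, 1404 and 1426 CPM with SW-138. These sums overlapped, and the group means differed by -0.09 on the log2 scale. TUBA1A is a small part of this sum, which therefore cannot show whether the TUBA1A call depends on how reads were divided.

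The abundant alpha-tubulin genes gave small differences. TUBA1B, the most abundant of them per length, measured 903.7, 838.7 and 996.7 CPM with SW-113 and 829.7, 862.0 and 884.4 CPM with SW-138 (log2 fold change -0.09, 95% interval -0.23 to 0.05, edgeR adjusted p = 0.48). Its libraries overlapped between the groups, with SW-113 replicate 3 the highest. TUBA1C measured 520.9, 529.0 and 583.6 CPM with SW-113 and 525.1, 517.3 and 514.8 CPM with SW-138 (log2 fold change -0.07, interval -0.18 to 0.05, edgeR adjusted p = 0.517). Here too the groups overlapped. An antisense gene opposite TUBA1C, AC125611.3, held 57.4 to 69.2 CPM, with a log2 fold change of -0.08.

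TUBA4A was the one of the 10 alpha- and beta-tubulin members with a positive value. It measured 76.7, 89.3 and 85.03 CPM with SW-113 and 89.7, 88.8 and 90.4 CPM with SW-138 (log2 fold change 0.10, SE 0.06, interval -0.03 to 0.23, edgeR adjusted p = 0.374). The groups overlapped, since SW-113 replicate 2 was above SW-138 replicate 2, and the test was not passed. It shares 627 exonic bases with STK16 on the opposite strand. Tested alpha- and beta-tubulin genes outside the 51 had both signs, with intervals that held 0. TUBA3C and TUBA3E had log2 fold changes of -0.08 and -0.05. TUBA3D, TUBA8 and TUBB1, at 0 to 1.47 CPM, had 0.08, 0.53 and 0.37.

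Among the beta-tubulins, TUBB2A had the lowest log2 fold change of all 50 tested members. TUBB2A (ENSG00000137267, chr6:3153669-3157526, minus strand), an isotype prominent in neurons, measured 19.2, 19.7 and 21.7 CPM with SW-113 and 12.7, 14.1 and 16.0 CPM with SW-138. The highest SW-138 library was below the lowest SW-113 library. The means were 20.2 ± 1.31 and 14.3 ± 1.67 CPM (SD, n = 3), so the level was 1.417-fold lower with SW-138 (log2 fold change -0.50, SE 0.09, interval -0.71 to -0.30, edgeR adjusted p = 0.0114). Without SW-113 replicate 3 the log2 fold change was -0.45 and edgeR's adjusted p 0.0679. Its near-identical neighbour TUBB2B was almost silent, at 0.363, 0.383 and 0.295 CPM with SW-113 and 0.311, 0.118 and 0.353 CPM with SW-138. The interval of its log2 fold change, -1.35 to 0.57, was too wide to place it on either side of 0. The sum of both genes was 19.5, 20.1 and 22.0 CPM against 13.0, 14.3 and 16.3 CPM, without overlap, and this sum does not depend on how reads were divided between the pair.

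The promoter of TUBB2A is shown because it is the beta-tubulin that passed the test, and because it held motifs that the other tubulin promoters lacked. It is the 250 bases before the RefSeq transcription start (GRCh38.p14, chr6:3157545-3157794, minus strand), written 5′ to 3′ in the direction of transcription, with capitals for the motifs found.
TUBB2A: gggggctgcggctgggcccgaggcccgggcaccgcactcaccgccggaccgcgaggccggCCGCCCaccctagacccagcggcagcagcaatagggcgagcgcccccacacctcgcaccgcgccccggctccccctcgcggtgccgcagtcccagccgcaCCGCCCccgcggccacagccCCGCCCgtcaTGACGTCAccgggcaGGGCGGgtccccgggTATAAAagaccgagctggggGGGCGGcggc
Searches on both strands were for the CCAAT box, the GC box with the letters GGGCGG, the TATA box as TATAAA and the cyclic AMP response element as TGACGTCA, which reads the same on both strands. The matches in this window did not overlap each other. TATAAA began 30 bases before the start, at position -30, and TGACGTCA occupied positions -60 to -53. Among the promoters of the 10 alpha- and beta-tubulin genes TUBB2A alone held either of these. TATAAA was present in 10.7% and TGACGTCA in 1.65% of 35116 RefSeq promoters of the same length, and in 4 and 3 of the 48 member promoters in the table. GGGCGG was present in 8 of the 10 tubulin promoters, in 39 of the 48 member promoters and in 42.6% of all promoters. CCAAT was present in 7 of the 10, not including TUBB2A, in 23 of the 48 and in 32.01% of all. A match of letters is a description of this window and shows no binding.

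The other beta-tubulins all had negative log2 fold changes and did not pass edgeR's test; DESeq2 called TUBB3 lower (adjusted p = 0.0208). TUBB3, the class III isotype used as a marker of neurons and raised in many tumour lines, measured 61.4, 56.2 and 68.5 CPM with SW-113 and 48.4, 52.0 and 54.3 CPM with SW-138. The groups did not overlap, with a log2 fold change of -0.27 (SE 0.08, interval -0.44 to -0.10) and an edgeR adjusted p of 0.0633. Without SW-113 replicate 2 or SW-138 replicate 2 edgeR's adjusted p was 0.0483 or 0.0447, under the threshold. Without SW-113 replicate 3 the log2 fold change was -0.19 with an edgeR adjusted p of 0.225, and without SW-138 replicate 1 it was -0.22 with 0.181.

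TUBB, the predominant beta-tubulin here, measured 1432, 1389.9 and 1534 CPM with SW-113 and 1335, 1339.5 and 1327 CPM with SW-138 (log2 fold change -0.12, SE 0.05, interval -0.23 to -0.02, edgeR adjusted p = 0.216). The groups did not overlap, although the test was not passed. TUBB4B measured 266.5, 276.8 and 294.4 CPM with SW-113 and 248.7, 246.5 and 261.0 CPM with SW-138 (log2 fold change -0.15, edgeR adjusted p = 0.142). Its libraries were again separate. TUBB6, a class V isotype widely expressed outside neurons, measured 168.8, 161.8 and 175.8 CPM with SW-113 and 149.0, 154.1 and 162.2 CPM with SW-138 (log2 fold change -0.12, edgeR adjusted p = 0.219). SW-138 replicate 3 exceeded SW-113 replicate 2, so those groups overlapped.

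**Figure D2:**
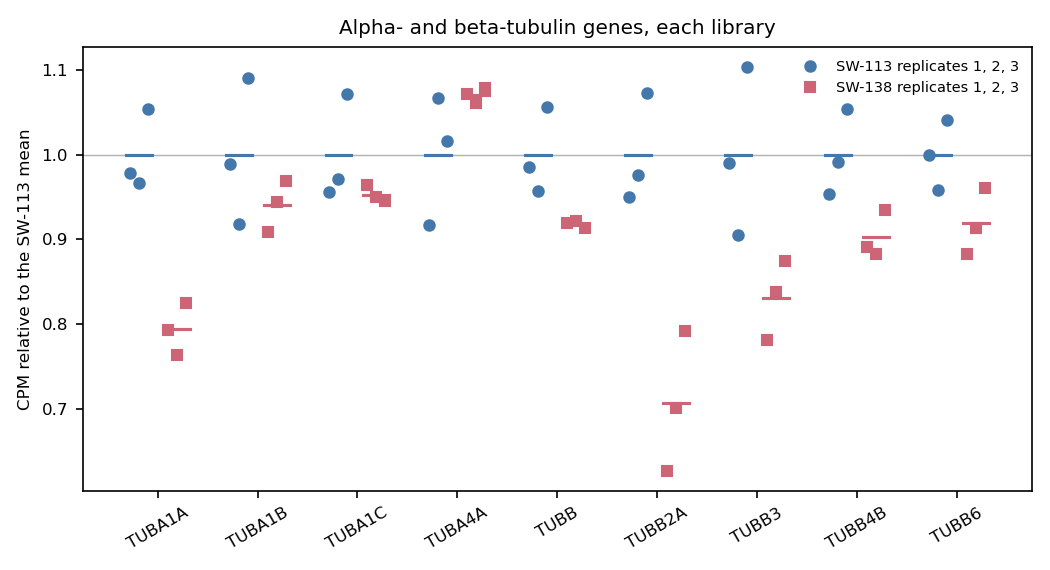
CPM of 9 alpha- and beta-tubulin genes relative to each gene's SW-113 mean (vertical axis), with circles for SW-113 and squares for SW-138 replicates 1 to 3 and lines for group means; TUBB2B, under 0.4 CPM in every library, is not drawn. The groups are separate for TUBA1A, TUBB2A, TUBB3, TUBB4B and TUBB, and the third SW-113 circle is the highest point for most genes.

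Summed, the 6 beta-tubulin members measured 1948, 1905 and 2095 CPM with SW-113 and 1794, 1806 and 1821 CPM with SW-138. All SW-138 libraries were below all SW-113 libraries, and the group means differed by -0.13 on the log2 scale. On library totals alone, without TMM factors, this difference was -0.07. The 4 alpha-tubulin genes measured 1534, 1489 and 1700.1 CPM against 1471, 1493 and 1517 CPM, which overlapped, with a difference of -0.08 that was -0.01 on library totals alone and -0.02 without SW-113 replicate 3. SW-113 replicate 3 was the highest of the 6 libraries for 8 of the 10 genes. It was also highest for 19 of the 50 tested members.

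Isotype shares were computed from CPM per kilobase of the principal transcript, within the 4 alpha-tubulin and 6 beta-tubulin members alone. Alpha-tubulin genes outside the 51 were left out, such as TUBA3C (22.2 CPM per kilobase with SW-113, against 17.2 for TUBA1A). TUBA1B made up 70.2% ± 1.28 of the alpha-tubulin level with SW-113 and 69.8% ± 0.818 with SW-138 (SD, n = 3), and TUBA1C 22.7% ± 0.682 and 22.9% ± 0.705. TUBB made up 64.4% ± 0.355 and 65.1% ± 0.955 of the beta-tubulin level, followed by TUBB4B, TUBB6 and TUBB3. The ranges of these shares overlapped between the groups. The minor isotypes that passed the test had lower shares, which restate the same CPM values and are no separate evidence. TUBA1A held 2.10% to 2.22% with SW-113 and 1.74% to 1.84% with SW-138. TUBB2A held 1.45% to 1.52% with SW-113 and 1.04% to 1.29% with SW-138. Neither pair of ranges overlapped. The share of TUBB3 was 3.91% to 4.34% and 3.60% to 3.95%, and that of TUBA4A 4.54% to 5.51% and 5.42% to 5.61%, both with overlap.

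**Figure D3:**
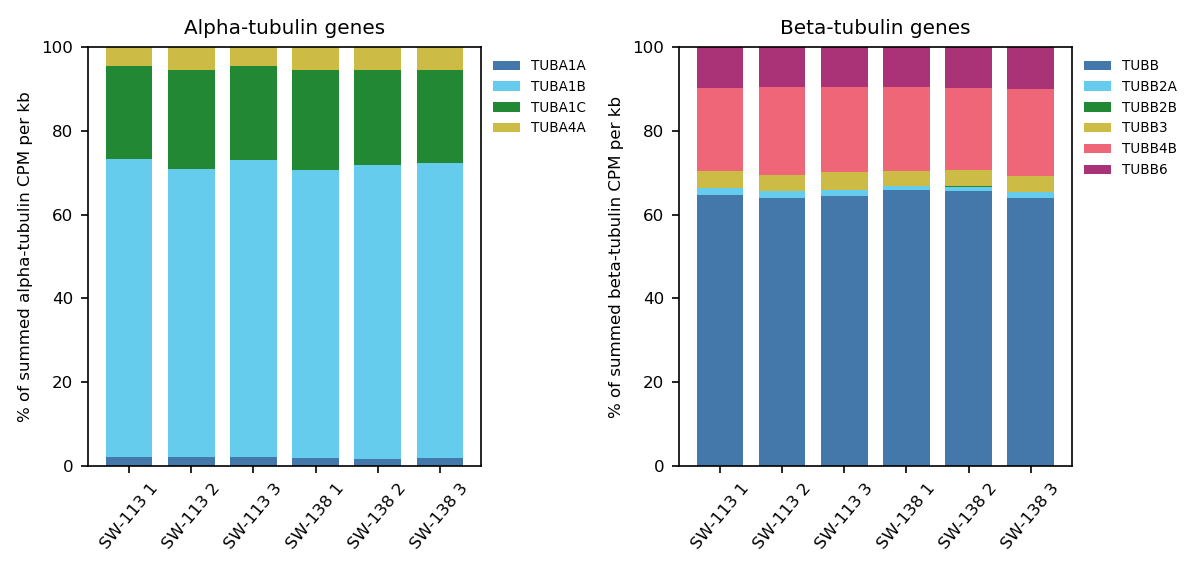
Share of each gene in the summed CPM per kilobase of the members of its family (vertical axis, percent) for each of the 6 libraries, alpha-tubulins on the left and beta-tubulins on the right. TUBA1B (about 70.2% with SW-113) and TUBB (64.4%) hold most of these sums in every library. TUBA1A and TUBB2A are thin bands of about 2.16% and 1.499% with SW-113.

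Of the distant tubulins and the gamma-tubulin complex, TUBE1 was higher with SW-138 and the other 4 genes did not pass the test. TUBE1 (ENSG00000074935, chr6:112070777-112087529, minus strand) encodes epsilon-tubulin, which is needed to build the triplet microtubules of centrioles. It measured 31.1, 32.8 and 31.0 CPM with SW-113 and 37.6, 39.8 and 37.6 CPM with SW-138. The groups were far apart compared with the spread inside each: 31.7 ± 0.980 and 38.3 ± 1.24 CPM (SD, n = 3), a log2 fold change of 0.28 (SE 0.06, interval 0.15 to 0.40, edgeR adjusted p = 0.0165). Without SW-113 replicate 1 or SW-113 replicate 3, edgeR's adjusted p was 0.0705 or 0.0860, with log2 fold changes of 0.26 and 0.26. TUBE1 shares 193 exonic bases with WISP3 on the opposite strand. TUBD1, the delta-tubulin that works with it in centrioles, had the opposite sign, with a log2 fold change of -0.25 (interval -0.58 to 0.08) at 2.28 to 3.22 CPM. TUBG1, the main gamma-tubulin, lay at 50.99 to 55.5 CPM with SW-113 and 42.8 to 49.6 CPM with SW-138, without overlap (log2 fold change -0.20, edgeR adjusted p = 0.104). TUBGCP2 and TUBGCP3, subunits of the complex that gamma-tubulin forms, had values of -0.10 and 0.05.

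TBCA was lower with SW-138, as the one of the 5 folding cofactors to pass the test. TBCA (ENSG00000171530, chr5:77691166-77868780, minus strand) encodes the cofactor that captures freshly folded beta-tubulin. It measured 49.2, 48.1 and 50.7 CPM with SW-113 and 41.1, 41.3 and 42.5 CPM with SW-138, with a clear gap between the groups. The log2 fold change was -0.24 (SE 0.05, interval -0.36 to -0.13, edgeR adjusted p = 0.0191). TBCA has the second shortest principal transcript among the members, 683 bases, and with trends of transcript length and GC content removed its value was -0.17 and its adjusted p 0.207. On library totals alone the adjusted p was 0.0571, and without SW-113 replicate 1, SW-113 replicate 3 or SW-138 replicate 1 it was 0.0674, 0.0971 or 0.0667. TBCB, which with TBCE handles alpha-tubulin, had the same log2 fold change to 2 decimals, -0.24, with a wider interval (-0.43 to -0.05) and overlapping libraries (edgeR adjusted p = 0.128). TBCC, TBCD and TBCE lay at 0.07, 0.01 and -0.08.

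**Figure D4:**
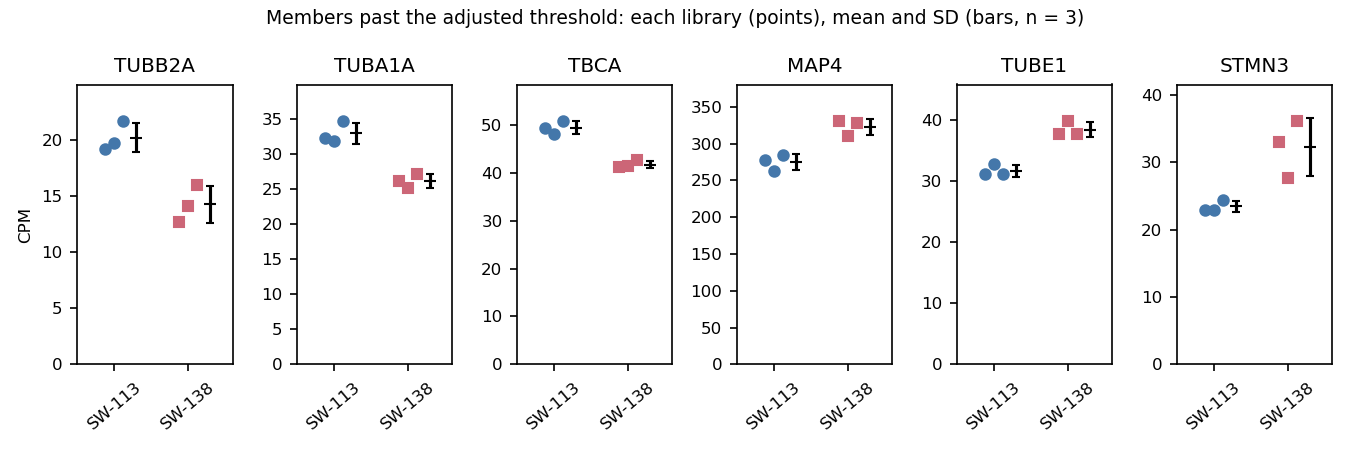
CPM (vertical axes from 0, one per gene) of the 6 members past the adjusted threshold in each library, circles for SW-113 and squares for SW-138, with mean and SD (bars, n = 3). TUBB2A, TUBA1A and TBCA are lower and MAP4, TUBE1 and STMN3 higher in all 3 SW-138 libraries than in any SW-113 library.

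None of the 12 genes for tubulin-modifying enzymes passed edgeR's adjusted threshold: 0 by edgeR, 0 by DESeq2 and 0 by limma-voom, and 4 at an unadjusted p under 0.05, all of them lower. Those 4 were ATAT1, TTL, SVBP and AGBL5, and in each the groups did not overlap. The groups were also separate for TTLL5, which was higher with SW-138. Groups without overlap made up 41.7% of the 12 genes, against 27.9% of all tested genes. An unadjusted p under 0.05 by edgeR was reached by 22.3% of all tested genes. ATAT1, the alpha-tubulin acetyltransferase, lay at 4.70 to 5.94 CPM with SW-113 and 4.23 to 4.65 CPM with SW-138 (log2 fold change -0.31, SE 0.13, interval -0.60 to -0.03, edgeR adjusted p = 0.161). Its deacetylases, which are outside the 51 genes, did not pass either. HDAC6 had a log2 fold change of 0.13 (interval -0.05 to 0.31, edgeR adjusted p = 0.374) at 12.4 to 15.4 CPM, and SIRT2 one of -0.15 (interval -0.31 to 0.01, adjusted p = 0.24) at 18.1 to 22.4 CPM.

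In the tyrosination cycle, TTL restores the tyrosine at the end of alpha-tubulin and the vasohibins VASH1 and VASH2, in complex with SVBP, remove it. TTL lay at 73.4 to 77.1 CPM with SW-113 and 65.96 to 72.1 CPM with SW-138 (log2 fold change -0.13, edgeR adjusted p = 0.164). SVBP lay at 2.70 to 2.80 and 1.596 to 2.32 CPM (log2 fold change -0.47, SE 0.17, interval -0.85 to -0.09, edgeR adjusted p = 0.136). Genes of both directions of the cycle thus had lower values with SW-138, none past the adjusted threshold. VASH1 and VASH2 had log2 fold changes of -0.20 and 0.19 with intervals that held 0, and TTLL12 one of -0.08.

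The glutamylases TTLL1, TTLL4, TTLL5 and TTLL7, which add glutamate chains to tubulin tails, had log2 fold changes of -0.11, 0.05, 0.10 and 0.21. The carboxypeptidases that trim those chains, AGTPBP1 and AGBL5, had -0.07 and -0.20. AGBL5 (chr2:27042364-27070622, plus strand), which removes the branch-point glutamate, measured 31.5, 32.8 and 33.8 CPM with SW-113 and 29.1, 27.2 and 29.2 CPM with SW-138. The groups did not overlap (SE 0.06, interval -0.33 to -0.07, edgeR adjusted p = 0.0714), and with length and GC trends removed the adjusted p was 0.0437. AGTPBP1 lay at 32.1 to 40.4 CPM across all libraries.

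Structural MAPs, which line the lattice and stabilise it, had positive log2 fold changes in 7 of 8 genes (8 on library totals alone, where MAP7D1 was at 0.03, and 6 with length and GC trends removed, where MAP1A was at -0.02). Over all tested genes, 8711 of 16905 had positive values. The median of the structural MAPs was 0.15, and MAP4 passed edgeR's test. MAP4 (ENSG00000047849, chr3:47850690-48089272, minus strand), the main structural MAP of cells other than neurons, measured 277.3, 262.7 and 284.8 CPM with SW-113 and 330.7, 309.7 and 327.4 CPM with SW-138. All SW-138 libraries were above all SW-113 libraries, with means of 275.0 ± 11.3 and 322.6 ± 11.3 CPM (SD, n = 3). The log2 fold change was 0.23 (SE 0.05, interval 0.12 to 0.34, edgeR adjusted p = 0.0304). This call was lost without each single library other than SW-138 replicate 2, with adjusted p from 0.0803 (without SW-113 replicate 3) to 0.121 (without SW-113 replicate 2). With 1 library left out at a time, its log2 fold change ran from 0.20 to 0.26.

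The MAPs best known from neurons also had positive values and did not pass edgeR's test; DESeq2 called MAP2 and MAP1B higher (adjusted p = 0.00976 and 0.0290). MAP2 (chr2:209424058-209734118, plus strand), a dendritic MAP, measured 3.74, 5.56 and 3.66 CPM with SW-113 and 5.70, 7.42 and 6.95 CPM with SW-138. The groups were separated by a narrow margin, and the log2 fold change of 0.62, the highest among the members, had an interval of 0.23 to 1.00 and an edgeR adjusted p of 0.0594. Without SW-113 replicate 2 the value was 0.85 and edgeR's adjusted p 0.0233, and without SW-113 replicate 3 they were 0.51 and 0.210. MAP1B (chr5:72107234-72209570, plus strand), a MAP of growing axons that is abundant in these cells, measured 444.9, 424.4 and 455.1 CPM with SW-113 and 538.4, 481.0 and 485.0 CPM with SW-138 (log2 fold change 0.18, SE 0.06, interval 0.06 to 0.31, edgeR adjusted p = 0.0953). SW-138 replicate 1 was the highest and the groups did not overlap. MAPT, which encodes tau, was near the limit of use at 0.565 to 1.10 CPM (log2 fold change 0.55, interval -0.08 to 1.18). MAP1A, MAP1S, MAP7 and MAP7D1 had values of 0.02, 0.01, 0.11 and -0.03.

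Of 8 neuronal markers outside the 51 genes, 5 were under 1 CPM in every library and INA was at 0. Their summed level was 77.5 to 93.6 CPM with SW-113 and 100.6 to 134.7 CPM with SW-138, without overlap. Most of it was NCAM1, an adhesion molecule of neurons and other cells, which was higher with SW-138 (log2 fold change 0.49, edgeR adjusted p = 0.0377). That call was lost without each single library other than SW-138 replicate 2 (adjusted p 0.0707 to 0.140). SNAP25 lay at 8.99 to 10.3 CPM with SW-113 and 11.1 to 13.0 CPM with SW-138, without overlap (log2 fold change 0.29, edgeR adjusted p = 0.0869). SYT1 had a log2 fold change of -0.06, and its groups overlapped. The part of these markers in the values of MAP2, MAP1B and STMN3 was not tested.

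The plus-end proteins, which track growing microtubule tips, gave small differences. Of MAPRE1, MAPRE2, MAPRE3, CLASP1, CLASP2 and CLIP1, 0 passed by edgeR, DESeq2 or limma-voom and 0 reached an unadjusted p under 0.05. Their log2 fold changes ran from -0.10 (MAPRE1, interval -0.21 to 0.01) to 0.09 (MAPRE2, interval -0.08 to 0.26). The severing genes KATNA1, encoding katanin, and SPAST, encoding spastin, had -0.08 and -0.11.

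Stathmins bind free tubulin dimers and promote disassembly, and STMN3 was higher with SW-138. STMN3 (ENSG00000197457, chr20:63639705-63657682, minus strand) measured 22.9, 22.9 and 24.4 CPM with SW-113 and 33.0, 27.7 and 36.1 CPM with SW-138. The SW-113 libraries lay close together, and the SW-138 libraries were more scattered but all above them. The means were 23.4 ± 0.867 and 32.2 ± 4.26 CPM (SD, n = 3), 1.38-fold higher with SW-138 (log2 fold change 0.46, SE 0.09, interval 0.26 to 0.66, edgeR adjusted p = 0.0143). Without SW-113 replicate 1, 2 or 3 the adjusted p was 0.0669, 0.0627 or 0.0619, and without SW-138 replicate 1 it was 0.0512. STMN1, the ubiquitous stathmin of dividing cells, had a log2 fold change of 0.15 (interval 0.00 to 0.31, edgeR adjusted p = 0.225), and its groups overlapped at 138.3 to 168.4 and 168.2 to 176.9 CPM.

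All 6 calls were lost when SW-113 replicate 3 was left out: 0 members then passed edgeR's adjusted threshold, with 13 at an unadjusted p under 0.05, and 303 genes (1.74%) passed over the whole table. Leaving out SW-138 replicate 2, the library that stood apart, left all 6 calls in place and gave 8 members, while the share called over the whole table rose to 9.39%.

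The log2 fold changes also ran with transcript length. Over all tested genes, the median was -0.12 in the shortest 10% of transcripts and 0.05 in the longest 10%. Across the 49 members with a known length, log2 length and log2 fold change had a Pearson r of 0.45 and a Spearman rho of 0.46, against 0.12 and 0.18 across all 16784 such genes; the points come from the same 6 libraries and genes are not independent replicates. With trends of length and GC content removed within each library, the members' values were 0.33 and 0.33. The alpha- and beta-tubulin transcripts are short (median 1967.5 bases) and those of the structural MAPs long (median 5952 bases). After that removal the medians were -0.14 for the tubulins (-0.14 before) and 0.08 for the MAPs (0.15 before), and MAP1B had a log2 fold change of 0.11 (edgeR adjusted p = 0.316). TUBA1A, TUBB2A, TUBE1, MAP4 and STMN3 still passed the adjusted threshold.

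**Figure D5:**
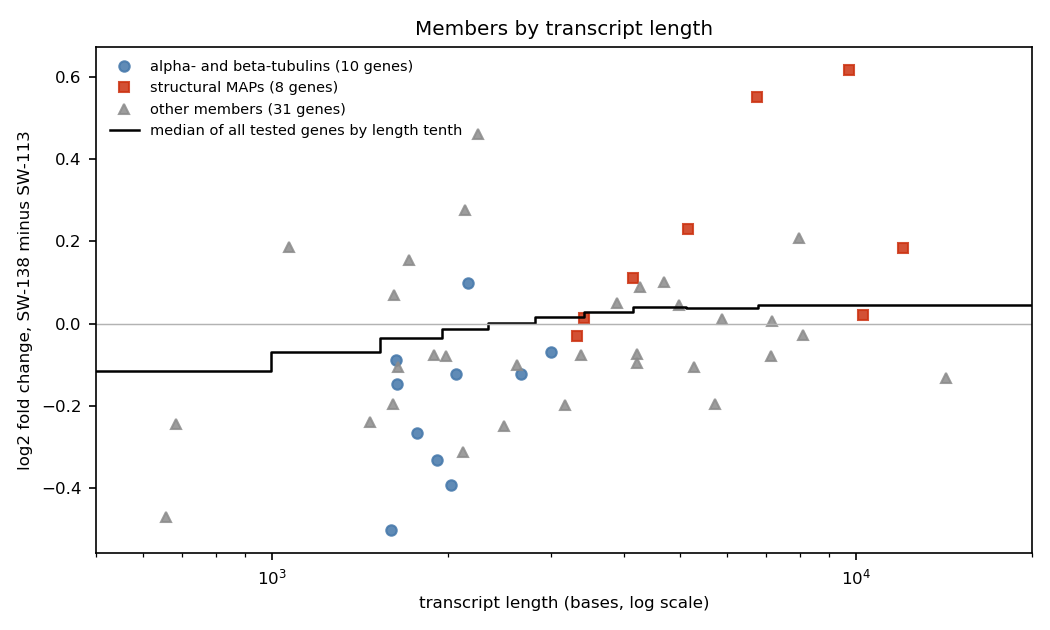
Log2 fold change (SW-138 minus SW-113, vertical axis) of 49 members against transcript length (horizontal axis, log scale), with the median of all tested genes in each 10% of lengths as a step line. The line rises from -0.12 to 0.05; the tubulins (circles) lie mostly below it and the structural MAPs (squares) mostly above.

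A list of 70 other microtubule genes, from the same pathway, had 52 tested genes, of which 1 was higher and 1 lower (3.85%, against 6.82% of all tested genes). The difference from the members was not tested. FIGNL1, a relative of the severing enzymes, measured 28.5, 26.4 and 28.6 CPM with SW-113 and 35.1, 35.1 and 33.5 CPM with SW-138 (log2 fold change 0.31, SE 0.06, edgeR adjusted p = 0.0124). Its groups did not overlap, and without SW-113 replicate 2 or 3 the adjusted p was 0.0543 to 0.0552. DCLK1, a kinase of the doublecortin family that binds microtubules, measured 9.01, 9.11 and 9.85 CPM with SW-113 and 6.71, 8.07 and 7.0 CPM with SW-138 (log2 fold change -0.36, SE 0.10, edgeR adjusted p = 0.0495). Its call was lost without each single library other than SW-138 replicate 2 (adjusted p 0.102 to 0.182).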

How the data were processed

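Per the labels' protocols, RNA of 6 HT1080 libraries was depleted of ribosomal RNA and sequenced as paired reads. Expected counts per gene were deposited by the authors in 1 table. Tools named, without their roles, in the submitters' processing notes are RSEM 1.3.3, Bowtie2 2.5.4, Trimmomatic 0.39 and DESeq2 1.42.0, with the build GRCh38. Annotation version and strand setting are not given in the sources used here. Expected counts (10.56% to 11.56% of values not whole) were rounded, filtered with filterByExpr (16905 of 60675 genes) and compared with edgeR 4.0.16 (quasi-likelihood test, TMM, no block; adjusted by Benjamini-Hochberg at 0.05). Standard errors and 95% intervals used limma-voom (limma 3.58.1) in R 4.3.3. No replicate pair agreed within sampling noise. Lengths, coordinates and coding sequences came from GENCODE release 29 (50 of 51 members matched; TBCE was not), promoters from RefSeq (48 members). Members and lists were chosen with earlier results of these data known. Full values were given for the alpha- and beta-tubulin members, the members past the threshold and the 10 smallest p. Of the other microtubule genes, values were given for those past the threshold, HDAC6, SIRT2 and tested alpha- and beta-tubulins. On data simulated for this comparison (16905 genes), edgeR recovered 19 of 49 genes changed 1.25-fold and 26 of 47 changed 1.5-fold. It recovered 33 of 47 changed 2-fold and 47 of 47 changed 4-fold, and made 7 false calls. Far fewer genes were changed there than the 1153 called here, so this recovery need not hold for these data. Alternatives were other scalings, filters, DESeq2 1.42.0, limma-voom, a block, length and GC trends removed, and leaving out each library. Figures used matplotlib 3.10.9.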

Additional observations from a re-analysis of the deposited data

How the results depend on the processing

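None of the 17 members given library by library changed sign under any alternative. Among all 50 tested members, the sign differed for 2 on library totals alone, for 4 with length and GC trends removed and for 1 to 5 with 1 library left out. DESeq2 size factors, upper-quartile factors and limma-voom kept the same 6 members. Members higher numbered 5 (3 in the values above) on library totals alone, with genes kept at 1 count in 1 library, with DESeq2 and with the replicate block. DESeq2 added MAP1B, MAP2 and TUBB3 to the 6 calls. Members lower numbered 6 with the 1-count filter and 7 with the block. Other microtubule genes higher numbered 4 on library totals, 2 at a mean of 5 CPM and 3 with the block; other genes lower numbered 0 with DESeq2 size factors, upper-quartile factors, library totals and limma-voom, 2 with 1 count in 1 library and 4 with the block. Genes called over the whole table numbered 2060 with 1 count in 1 library (6.54% of tested genes) and 2363 with the block (13.98%). The share was 7.63% on library totals alone and 8.09% with DESeq2, against 6.82% in the values above. Library totals alone moved the median of all genes to 0.07 and the summed beta-tubulin difference to -0.0699 from -0.1338. Leaving out each library gave 303 to 1616 genes (1.74% to 9.39%). Members higher then numbered 0 to 3 and members lower 0 to 5, with 0 to 3 other genes higher and 0 to 2 lower. The cause of these differences was not tested. The replicate numbers were not shown to pair the samples: deviations of same-numbered libraries correlated at 0.0492, 0.2064 and 0.0512, and not every library correlated best with its own number. Removal of length and GC trends was not run for the summed tubulin levels. Depth limits TUBB2B, MAPT, VASH2 and STMN2, all under 2 CPM.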
